A study of Mus musculus with 6 samples.

Results

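Fibronectin and the matricellular proteins are secreted by cells into the matrix around them. Fibronectin is assembled into fibrils through integrins and is a classical product of cells that undergo the epithelial-mesenchymal transition (EMT). Matricellular proteins such as thrombospondins, tenascins, osteopontin and SPARC add little to the strength of the matrix and instead bind receptors, growth factors and proteases, and many of their genes respond to TGF-β. The 10 genes described here were taken from a fixed list of names and not from their measured values: Fn1 (fibronectin), Tnc (tenascin-C), Thbs1 and Thbs2 (thrombospondins), Postn (periostin), Sparc (osteonectin), Spp1 (osteopontin), Tgfbi (TGF-β-induced protein), Fbln2 (fibulin-2) and Bgn (biglycan). All 10 were among the 18512 entries of the deposited count table, and 8 of them passed the minimum of a mean of 20 normalized counts over all libraries, as did 13353 entries in all. Thbs2 and Postn did not pass it and were not tested.

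The cells were NMuMG, an epithelial line from normal mouse mammary gland that undergoes EMT when given TGF-β. One group received the solvent DMSO, another TGF-β at 5 ng/ml, and the last TGF-β at 5 ng/ml together with 2APB at 50 uM, a compound that blocks store-operated calcium entry through some of its channels, so each TGF-β+2APB library can be set against TGF-β alone but no library had 2APB alone. Each group had 2 biological replicates of this 1 line, or 6 libraries, and the treatment lasted 24 h by the study's results, while its methods place 2APB before TGF-β, an order that the labels do not settle. Each library held between 71840570 and 79473182 counts, all of them even numbers. By the study's methods, RNA purified with oligo-dT from the total RNA of a culture was measured. Fewer cells of a type and less RNA per cell therefore cannot be told apart.

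The labelled cell type and treatment were checked on marker genes. The epithelial markers Krt8, Krt18 and Cdh1 were abundant in all 6 libraries, whereas Epcam had only 52 to 158 counts and Esrp1 at most 4. Against DMSO, Krt8 and Krt18 were called higher with both treatments, and Cdh1 and Epcam were called lower. Cdh1 was 1.72-fold lower under TGF-β and 2.39-fold lower under TGF-β+2APB. The TGF-β response genes Smad7, Skil and Pmepa1 were called higher than in DMSO with both treatments. Of 6 fibroblast markers in the table, Dcn, Dpt and Pi16 had at most 20 counts in any library, while Col1a1 and Pdgfrb were called higher with both treatments (Pdgfrb by 51.0-fold under TGF-β and 54.3-fold under TGF-β+2APB) and Pdgfra was called higher than in DMSO under TGF-β+2APB, by 3.47-fold, and not under TGF-β. Summed normalized counts of 5 liver-type plasma protein genes were 80047 and 71581 in the DMSO replicates and 134.6 to 728.5 in the treated libraries. Summed counts of 6 macrophage markers were 33002 in replicate 2 of TGF-β+2APB and 651.4 in replicate 1 of the same group, against 1880 to 5659 in DMSO and TGF-β. Lyz2 alone made up 28667.5 of the 33002 in replicate 2. Ptprc, Csf1r, Cd68 and Itgam were also highest in that replicate. Mrc1 was not: at 1000 there, it was below both DMSO replicates, at 1213 and 1374. That replicate stands apart in these genes other than Mrc1. For the 8 tested genes of the 10, the fold changes in the TGF-β+2APB comparisons are therefore given with and without it. Group means, levels and, unless stated, the fold changes of other genes include it.

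RefSeq promoter windows of the mouse genome GRCm38.p6, from 250 bases before to 50 bases after a start site, were at hand for 8 of the 10 genes, all but Fn1 and Thbs1. The windows of Spp1, Fbln2, Tnc and Bgn are shown because these genes differ in their course over the groups: Spp1 fell when 2APB was added, Fbln2 rose under TGF-β and stayed high with 2APB, and Tnc and Bgn rose under TGF-β and were lower again with 2APB. They lie at chr5:104434861-104435160 (plus strand), chr6:91212514-91212813 (plus strand), chr4:64046966-64047265 (minus strand) and chrX:73483351-73483650 (plus strand), and are written 5′ to 3′ along the gene.
Spp1: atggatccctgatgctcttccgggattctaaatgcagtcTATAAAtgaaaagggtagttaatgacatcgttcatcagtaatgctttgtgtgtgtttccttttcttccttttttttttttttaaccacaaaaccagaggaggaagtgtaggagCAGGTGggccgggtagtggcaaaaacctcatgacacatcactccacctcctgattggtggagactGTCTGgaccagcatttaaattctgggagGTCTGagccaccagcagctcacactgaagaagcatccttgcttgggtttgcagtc
Fbln2: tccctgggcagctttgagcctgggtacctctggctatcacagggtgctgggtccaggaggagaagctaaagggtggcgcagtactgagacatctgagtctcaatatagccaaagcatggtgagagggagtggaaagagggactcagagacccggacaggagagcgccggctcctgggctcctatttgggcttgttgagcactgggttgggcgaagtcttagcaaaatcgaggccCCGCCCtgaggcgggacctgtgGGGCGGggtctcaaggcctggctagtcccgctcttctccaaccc
Tnc: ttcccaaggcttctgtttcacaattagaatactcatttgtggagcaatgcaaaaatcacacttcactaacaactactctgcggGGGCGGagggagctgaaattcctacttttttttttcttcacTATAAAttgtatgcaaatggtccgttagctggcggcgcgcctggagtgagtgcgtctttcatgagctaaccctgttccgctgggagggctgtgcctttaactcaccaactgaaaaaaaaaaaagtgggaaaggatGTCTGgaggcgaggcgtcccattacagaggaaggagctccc
Bgn: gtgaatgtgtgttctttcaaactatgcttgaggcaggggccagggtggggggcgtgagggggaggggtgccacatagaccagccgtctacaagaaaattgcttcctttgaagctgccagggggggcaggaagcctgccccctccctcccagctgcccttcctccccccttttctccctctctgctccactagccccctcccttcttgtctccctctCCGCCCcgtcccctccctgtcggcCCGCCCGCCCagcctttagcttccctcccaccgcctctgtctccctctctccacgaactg
Capitals mark matches, on either strand, to any of 5 short motifs: CAGAC, which is the core of the SMAD binding element, the AP-1 motif TGANTCA, the GC box motif GGGCGG, the TATA box motif TATAAA and the E-box motif CACCTG. The SMAD motif was found in 49.6% of the 32851 promoter windows of the same length, the AP-1 motif in 7.81%, the GC box in 35.7%, the TATA box in 13.6% and the E-box in 20.2%. For Spp1 and Tnc the table held a second window each, and the one nearest to the annotated start of the gene is shown. The Spp1 window shown holds the SMAD motif in 2 places, with 1 match each to the TATA box and the E-box, whereas its other window holds only 1 match to the SMAD motif. The Tnc window shown holds 1 match each to the SMAD motif, the GC box and the TATA box, and its other window, which overlaps it, has 2 matches to the SMAD motif. In the Fbln2 and Bgn windows the only matches were to the GC box, 2 and 3 in number, and those of Bgn overlap in 1 place. A match of these letters is a description of the sequence and not a binding site, and the counts below do not show which start site was used.

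**Figure D1:**
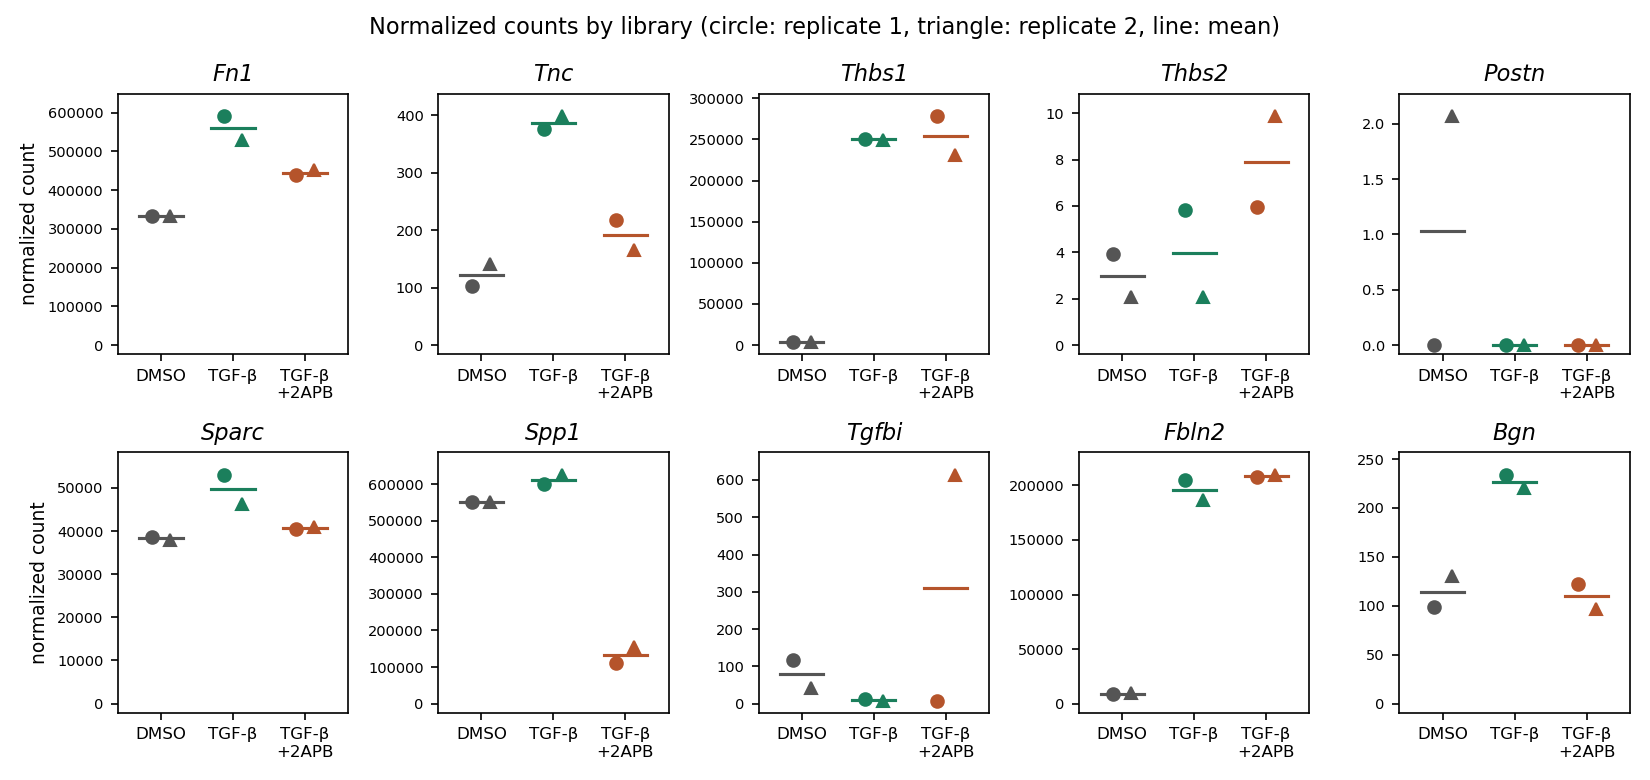
Normalized count (linear axis from 0) of each of the 10 genes in the 2 replicates of DMSO, TGF-β and TGF-β+2APB, with a line at the mean of each group. Thbs1 and Fbln2 are high with both treatments, Spp1 is low only in TGF-β+2APB, Tnc and Bgn are highest under TGF-β alone, and the replicates of Tgfbi in TGF-β+2APB lie at 5.94 and 613.6.

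The first comparison asked which of the genes changed when the cells were given TGF-β. By edgeR's quasi-likelihood test over all 13353 entries, with a Benjamini-Hochberg false discovery rate (FDR) of 0.05 or less, 6 of the 8 tested genes were called higher than in DMSO and 0 lower. The count of lower genes was also 0 at an unadjusted p under 0.05 and by DESeq2. In a fit of only the 4 libraries compared it was 1, Tgfbi. Of all tested entries, 41.5% were called, 21.8% higher and 19.7% lower. The median log2 fold change of the 8 genes was 0.87, against -0.01 over all tested entries. Both TGF-β replicates lay above both DMSO replicates in 7 of the 8 genes and below them in 1, Tgfbi, where the shares of all tested entries were 36.0% and 36.5%. The 6 called genes were Thbs1, Fbln2, Tnc, Bgn, Fn1 and Sparc, and their rises spanned from 1.3-fold to 77.1-fold.

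Under TGF-β+2APB against DMSO, 3 of the 8 genes, Thbs1, Fbln2 and Fn1, were called higher by the same test and 1, Spp1, was called lower, where 25.6% and 27.2% of all tested entries were called in these directions and 52.8% in either. The replicates of this group lay above those of DMSO without overlap in 5 of the 8 and below in 1, against 42.3% and 43.8% of all tested entries. Added 2APB was then set directly against TGF-β alone. In that comparison edgeR called 0 of the 8 genes higher and 4 lower, Spp1, Bgn, Tnc and Fn1. At an unadjusted p under 0.05 the count of higher genes was 1, Tgfbi, which DESeq2 called without its fold change prior and not with it. The background was 6.58% called higher and 10.9% called lower, 17.5% in all. Without overlap between the replicates, 1 of the 8 genes (Fbln2) was higher and 5 were lower, where the shares of all tested entries were 27.0% and 31.0%. The median log2 fold change of the 8 genes was -0.31, against -0.0037 over all tested entries. Of the 4 falls, that of Spp1 was called under each alternative, and those of Bgn, Tnc and Fn1 were not. Without either DMSO replicate, or without replicate 2 of TGF-β+2APB, Spp1 was the 1 gene called of the 8, and without replicate 1 of TGF-β+2APB it was called with Tgfbi.

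**Figure D2:**
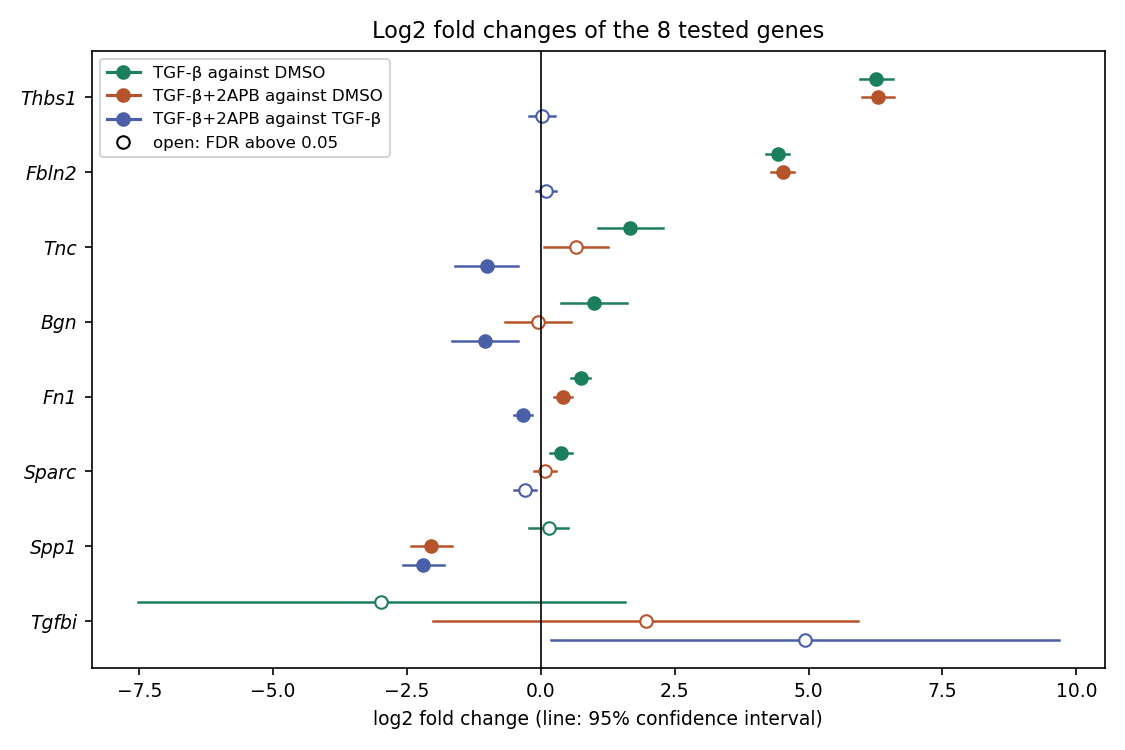
Log2 fold change (horizontal axis) of the 8 tested genes in the 3 comparisons, with lines for the 95% confidence interval, filled points for an FDR of 0.05 or less and open points above it. The points of Thbs1 and Fbln2 for TGF-β+2APB against TGF-β lie at 0.03 and 0.09, that of Spp1 at -2.20, and the intervals of Tgfbi are the widest.

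Fn1 lies on chromosome 1 (71585520 to 71653200, minus strand) of GRCm38. It encodes fibronectin, the ligand of the integrin dimer made by Itga5 and Itgb1. Deposited counts of Fn1 were 339746 and 323116 in the DMSO replicates, 606252 and 509926 under TGF-β, and 442488 and 457768 under TGF-β+2APB. Thus no replicate of one group overlapped another group, and TGF-β+2APB lay between the other two. Normalized to the mean library, the count was 333834 ± 73.8 (SD, n = 2) in DMSO, 559778 ± 43397 under TGF-β and 444803 ± 9592 under TGF-β+2APB. Fn1 rose under TGF-β, by a log2 value of 0.75 (SE 0.07, 1.68-fold, edgeR FDR 0.000847). It also rose under TGF-β+2APB against DMSO, by 0.41 (SE 0.07, edgeR FDR 0.00464). Between the treatments it fell by 0.33 on the log2 scale (SE 0.07, 1.26-fold lower, edgeR FDR 0.0306).
The rise of Fn1 under TGF-β was called without any single library. The rise under TGF-β+2APB missed the threshold without either replicate of that group, at an edgeR FDR of 0.0545 and 0.0512. The fall when 2APB was added missed it without either DMSO replicate (0.0946 and 0.0935) and without either TGF-β+2APB replicate (0.233 and 0.175), while its log2 fold change stayed between -0.41 and -0.25. Fn1 stood at 0.41 against DMSO and -0.36 against TGF-β without replicate 2 of TGF-β+2APB.

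Thbs1, on chromosome 2 (118111876 to 118127133, plus strand), encodes thrombospondin-1, a trimeric glycoprotein that binds CD47, CD36 and integrins and can release active TGF-β from its latent complex. Its counts were 3352 and 3088 in DMSO, 256982 and 240626 under TGF-β, and 280812 and 234234 under TGF-β+2APB. Both treated groups thus stood far above DMSO, and they overlapped each other. Thbs1 rose 77.1-fold under TGF-β (log2 6.27, SE 0.12, edgeR FDR 2.12e-05), rank 80 by log2 fold change among the 13353 tested entries. Under TGF-β+2APB it rose 78.5-fold against DMSO (log2 6.29, SE 0.12, edgeR FDR 1.02e-05). The log2 fold change was 0.03 when 2APB was added (SE 0.10, edgeR FDR 0.876), with a 95% interval from -0.21 to 0.27. Without replicate 2 of TGF-β+2APB these values were 6.44 against DMSO (edgeR FDR 3.36e-05) and 0.15 against TGF-β (edgeR FDR 0.488). A change within the interval above is therefore not resolved by 2 replicates per group.

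Fbln2, on chromosome 6 (91212455 to 91272540, plus strand), encodes fibulin-2, a calcium-binding glycoprotein that attaches to fibronectin and to microfibrils. The counts of Fbln2 were 8892 and 9142 in DMSO, 210198 and 180150 under TGF-β, and 209418 and 212564 under TGF-β+2APB. As for Thbs1, DMSO was far below, and the deposited counts of the treated groups overlapped. Once normalized they did not, at 204724 and 186921 for TGF-β and 207304 and 209693 for TGF-β+2APB. Fbln2 rose 21.5-fold under TGF-β (log2 4.43, SE 0.09, edgeR FDR 2.12e-05) and 22.9-fold under TGF-β+2APB (log2 4.52, SE 0.09, edgeR FDR 1.02e-05). Set against each other, the treatments differed by 0.09 (SE 0.08, edgeR FDR 0.45), with a 95% interval from -0.10 to 0.28. Without replicate 2 of TGF-β+2APB, Fbln2 stood at 4.53 against DMSO (edgeR FDR 4.76e-05) and 0.08 against TGF-β (edgeR FDR 0.772). Both genes kept their calls against DMSO, and their lack of one between the treatments, in each of 16 refits with another scaling, filter, tool or block, or without 1 library.

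Spp1 lies on chromosome 5 (104435118 to 104441050, plus strand) and encodes osteopontin, an acidic phosphoprotein that binds CD44 and the integrins of the Itgav group. Its counts were 561302 and 534094 in DMSO, 615464 and 602464 under TGF-β, and 113508 and 156884 under TGF-β+2APB. It was therefore abundant in all libraries, and both TGF-β+2APB replicates lay far below the other 4 libraries. Under TGF-β the log2 fold change was 0.15 (SE 0.15, edgeR FDR 0.456), with a 95% interval from -0.21 to 0.52. Under TGF-β+2APB it fell 4.13-fold against DMSO (log2 -2.05, SE 0.15, edgeR FDR 0.000217) and 4.58-fold against TGF-β (log2 -2.20, SE 0.15, edgeR FDR 0.00307). The latter change had rank 172 from the bottom among the 13353 tested entries. Both falls were called in each of 16 refits, and that against TGF-β ranged from -2.45 to -2.01. Macrophages also express Spp1, and their part in its counts was not tested. In replicate 2 of TGF-β+2APB the macrophage markers other than Mrc1 were highest. Without that replicate the fall was -2.27 against DMSO and -2.45 against TGF-β, larger than with it.

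Tnc, on chromosome 4 (63959785 to 64047015, minus strand), encodes tenascin-C, a large oligomeric protein of wounds and tumour stroma. It had few counts: 104 and 136 in DMSO, 386 and 384 under TGF-β, and 220 and 168 under TGF-β+2APB. No groups overlapped, and the order was TGF-β, TGF-β+2APB, DMSO. Tnc rose under TGF-β, by a log2 value of 1.67 (SE 0.24, 3.19-fold, edgeR FDR 0.00355), a call kept in all 16 refits. Under TGF-β+2APB its log2 fold change against DMSO was 0.66 (SE 0.24, edgeR FDR 0.0637), which was not called. DESeq2 called it, at an adjusted p of 0.0442 without its fold change prior and 0.0447 with it. Between the treatments it fell by 1.01 on the log2 scale (SE 0.24, 2.02-fold lower, edgeR FDR 0.0395). This fall missed the threshold without any 1 of the 6 libraries, at FDR values from 0.0579 to 0.116, while its log2 fold change stayed between -1.25 and -0.83. Without replicate 2 of TGF-β+2APB, Tnc was called higher than in DMSO, by 0.86 on the log2 scale (edgeR FDR 0.0408).

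Bgn, on chromosome X (73483602 to 73495933, plus strand), encodes biglycan, a small leucine-rich proteoglycan that binds collagen, TGF-β and Toll-like receptors. The counts of Bgn were 100 and 126 in DMSO, 240 and 212 under TGF-β, and 124 and 98 under TGF-β+2APB. TGF-β stood above both other groups, and these overlapped. Bgn rose under TGF-β, by a log2 value of 0.99 (SE 0.25, 1.99-fold, edgeR FDR 0.0245) and fell by 1.05 when 2APB was added (SE 0.25, 2.07-fold lower, edgeR FDR 0.0414). Against DMSO, TGF-β+2APB gave -0.06 (SE 0.25, edgeR FDR 0.864), with a 95% interval from -0.68 to 0.56. Without replicate 2 of TGF-β+2APB it was 0.13 (edgeR FDR 0.746), and the change against TGF-β was -0.89 (edgeR FDR 0.118). The rise lost its call without DMSO replicate 1 (edgeR FDR 0.158), DMSO replicate 2 (0.0668) or TGF-β replicate 1 (0.0608). The fall was called only without TGF-β replicate 2 (0.047) among the 6 fits with 1 library left out, and in the other 5 its FDR ran from 0.0709 to 0.118.

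Sparc, on chromosome 11 (55394500 to 55423183, minus strand), encodes osteonectin, a collagen-binding glycoprotein that loosens cell adhesion. Its counts were 39296 and 36812 in DMSO, 54432 and 44634 under TGF-β, and 40804 and 41514 under TGF-β+2APB. Both TGF-β replicates lay above the other 4 libraries, with a difference between them that was larger than that in the other groups. Sparc rose under TGF-β, by a log2 value of 0.37 (SE 0.08, 1.30-fold, edgeR FDR 0.0157), which was lost without either DMSO replicate (0.107 and 0.116). The change when 2APB was added was -0.29 (SE 0.08, edgeR FDR 0.0671), short of the threshold. It was called without TGF-β replicate 1 (edgeR FDR 0.0287) or TGF-β replicate 2 (0.00337), with library size scaling (0.0312), and by DESeq2 (adjusted p 0.0129 without and 0.0131 with its prior). Against DMSO, TGF-β+2APB gave 0.09 (SE 0.08, edgeR FDR 0.422). Without replicate 2 of TGF-β+2APB the values of Sparc were -0.30 against TGF-β (edgeR FDR 0.275) and 0.10 against DMSO (edgeR FDR 0.622).

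Tgfbi and Postn encode secreted proteins with fasciclin domains that bind integrins and collagen. Tgfbi lies on chromosome 13 (56609523 to 56639562, plus strand), and despite its name it was not called higher under TGF-β. Its counts were 120 and 40 in DMSO, 12 and 8 under TGF-β, and 6 and 622 under TGF-β+2APB. Both TGF-β replicates were below both DMSO replicates, and the TGF-β+2APB replicates held the lowest and the highest count of the 6 libraries. Replicate 1 minus replicate 2 was -6.47 on the log2 scale of normalized counts with 1 added to each. In size, 46 of the 13353 tested entries exceeded this difference. The log2 fold changes were -2.98 under TGF-β against DMSO (SE 1.84, edgeR FDR 0.247), 1.96 under TGF-β+2APB against DMSO (SE 1.60, edgeR FDR 0.348) and 4.93 between the treatments (SE 1.91, edgeR FDR 0.137). Without replicate 1 of TGF-β+2APB the last 2 became 2.94 (edgeR FDR 0.0106) and 5.89 (edgeR FDR 0.0142). Without replicate 2 they became -3.70 (edgeR FDR 0.0276) and -0.75 (edgeR FDR 0.727), so the direction turned on 1 library. The change under TGF-β against DMSO was then called as well, at -2.95 without either replicate of TGF-β+2APB (edgeR FDR 0.0174 without replicate 1 and 0.0198 without replicate 2).

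The course of Tgfbi over the libraries went with that of macrophage markers. Of 7 listed markers, 6 were in the table and all 6 had more counts in the second TGF-β+2APB replicate than in the first. The ratio of the replicates was 103.3 for Tgfbi, and among the markers it ran from 5.21 for Cd68, a lysosomal protein, to 183.3 for Lyz2, lysozyme. For 4 of the 6, Ptprc, Cd68, Itgam and Lyz2, the order of the 6 libraries was the same as that of Tgfbi. Csf1r and Mrc1 had another order. The part of these cells or transcripts in the counts of Tgfbi was not tested.

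**Figure D3:**
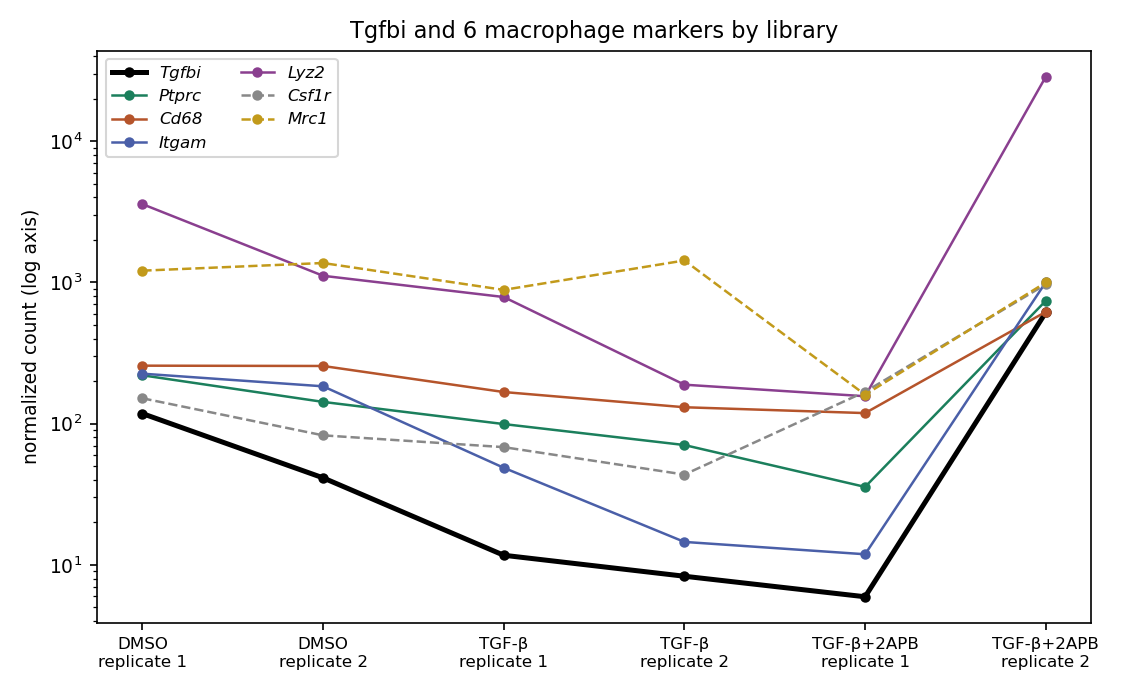
Normalized count (log axis) of Tgfbi and 6 macrophage markers in each of the 6 libraries, with a line joining the values of a gene. Tgfbi and all 6 markers are higher in TGF-β+2APB replicate 2 than in replicate 1, where Tgfbi is at 5.94.

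Postn, on chromosome 3 (54361109 to 54391037, plus strand), encodes periostin. It had 2 counts in DMSO replicate 2 and 0 in the other 5 libraries, and a count of 0 allows for up to 3, or for up to 6 if each read was entered as 2 counts, since all counts are even. Thbs2, on chromosome 17 (14665500 to 14694235, minus strand), encodes thrombospondin-2. It had 4 and 2 counts in DMSO, 6 and 2 under TGF-β, and 6 and 10 under TGF-β+2APB. At this depth neither gene was measured well enough to compare the groups.

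Levels were compared between genes as CPM per kilobase, that is, counts relative to the TMM-scaled library size (CPM), divided by the length of the longest annotated transcript. Spp1 was the highest of the 10 genes in every group, at 4790 ± 0.63 (SD, n = 2) in DMSO, 5316 ± 158 under TGF-β and 1160 ± 260 under TGF-β+2APB. Its rank among the 17517 genes with a length was 3 in DMSO and under TGF-β and 25 under TGF-β+2APB. By this length Fn1 was next in each group, at 525.3, 880.8 and 699.9 in the same order, or rank 72, 33 and 56. Sparc followed in DMSO, at 218 ± 2.38.
Thbs1 moved from 7.25 ± 0.165 in DMSO, rank 6733, to 559.3 ± 0.98 under TGF-β, rank 68, and 569.4 ± 74.2 under TGF-β+2APB, rank 76. Fbln2 moved from 24.9 ± 1.36, rank 2723, to 535.3 ± 34.4 and 570 ± 4.62, ranks 73 and 74. By the longest transcript, Thbs1 and Fbln2 were thus neighbours in both treated groups, and their replicates overlapped there. In DMSO they did not overlap. Bgn, Tgfbi and Tnc were low in every group, from 0.04 to 1.35, and Thbs2 and Postn were at 0.02 or less. Bgn, Tgfbi and Tnc overlapped with their neighbours in DMSO. In TGF-β+2APB the replicates of Tgfbi lay on both sides of those of Bgn and Tnc. The 10 genes together took 1.24% and 1.26% of all counts in the DMSO replicates, 2.19% and 2.18% under TGF-β, and 1.37% and 1.4% under TGF-β+2APB.

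**Figure D4:**
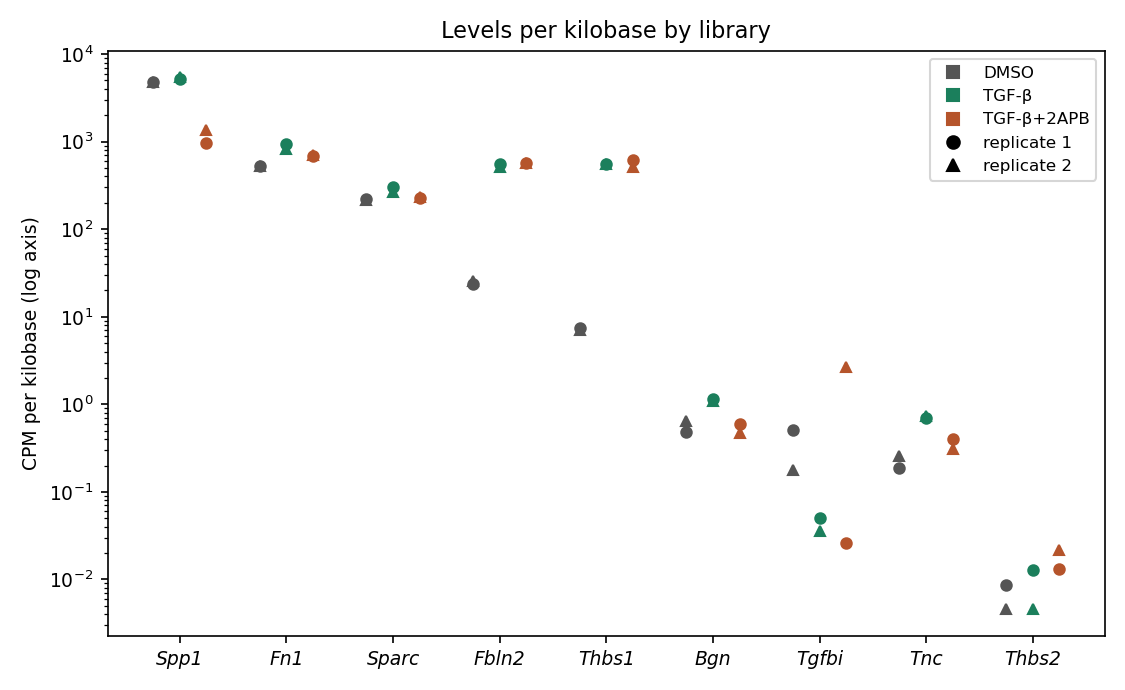
CPM per kilobase (log axis) of 9 genes in each library, ordered by their level in DMSO and coloured by group. Postn is left out because it is at 0 in 5 libraries. Thbs1 and Fbln2 rise into the range of Fn1 with both treatments, and Spp1 comes down towards Fn1 in TGF-β+2APB.

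The genes most like each of the 8 in course over the 6 libraries were sought among 13332 tested entries. Likeness was the root mean square (RMS) difference of log2 CPM, centred on each gene's mean. Before the log2, 0.5 was added to each CPM, which shrinks differences between low values such as those of Tgfbi. Fn1 was nearest to Pitpnm2 (RMS 0.03) and 4933404O12Rik (0.04), and Sparc to Myo1c (0.02) and Wfs1 (0.02). Thbs1 was nearest to Lgr6 (0.21) and Ctsw (0.24), and Fbln2 to Tnnt2 (0.08) and Tesc (0.09). Spp1 was nearest to Pif1 (0.15) and Ndnf (0.23), Tnc to Bard1 (0.06) and Sfxn5 (0.14), and Bgn to Gsg2 (0.09) and Lrr1 (0.09). The nearest to Tgfbi were C1qb (0.19), a subunit of complement C1q made by macrophages, and Irg1 (0.20), an enzyme of activated macrophages. Among the 8 genes themselves, Fn1 and Sparc were the closest pair (0.17). Thbs1 and Fbln2, which shared their direction but not their size, were 0.85 apart.

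Other matrix genes of the same families and their partners were read from a list of 53 genes, of which 43 were in the table and 21 were tested. Under TGF-β against DMSO, 6 were called higher and 7 lower, beside the shares of 21.8% and 19.7% of all tested entries. Under TGF-β+2APB against DMSO the numbers were 7 and 6, beside 25.6% and 27.2%. Between the treatments they were 1 and 3, near the 6.58% and 10.9% of all tested entries. Fibrillin microfibrils are fibres that hold latent TGF-β. Of 7 tested microfibril and elastic fibre genes, 5 were called higher than in DMSO with each treatment, Fbn1, Ltbp1, Ltbp2, Ltbp3 and Ltbp4, and the other related gene to rise under TGF-β was Efemp2. Between the treatments edgeR called 0 of the 7, where 3 had an unadjusted p under 0.05 and DESeq2 called Emilin2 higher and Ltbp4 lower. Emilin2 had 4 and 278 counts in the TGF-β+2APB replicates, and over the refits its log2 fold change ran from -0.02 to 6.02. Fbn1, fibrillin-1, had 0 counts in both DMSO replicates and was at least 13.4-fold higher under TGF-β and at least 18.3-fold higher under TGF-β+2APB, from a floor of 3 counts per library. Because all counts are even, a floor of 6 counts was also taken, which gives 6.70-fold and 9.15-fold. Ltbp2, a latent TGF-β binding protein, had 6 and 0 counts in DMSO and 226 and 244 under TGF-β. It was called higher (log2 6.24, SE 0.80), but from a level near the floor, so the size of its rise is uncertain. Over the refits that log2 fold change ran from 4.93 to 10.88. Ltbp1 rose as well (log2 2.32, SE 0.11).
The 7 falls under TGF-β were those of Thbs3, Ecm1 (1.33-fold lower), the fibulin Efemp1 (4.12-fold lower), the tenascin Tnxb (3.21-fold lower) and the fibrinogen chains Fga, Fgb and Fgg, plasma adhesion proteins that bind integrins. Of 16 refits, 10 kept the call of Ecm1 and 14 those of Efemp1 and Tnxb. Under TGF-β+2APB against DMSO, Ecm1 and Tnxb were not called and Hmcn1, another gene of the fibulin family, was called lower (2.88-fold). Fgb fell 31.8-fold under TGF-β (log2 -4.99, SE 0.39) and by a further log2 change of -4.12 when 2APB was added (SE 0.47). Fga, which had 0 counts in both TGF-β+2APB replicates, was at least 570.8-fold lower there than in DMSO, or at least 285.4-fold with the floor of 6 counts. The level of the fibrinogen genes in DMSO went with that of Alb, Ttr, Apoa1 and Serpina1a. These are the liver-type genes summed above apart from Fga, which that sum also holds. The part of liver-type expression in the fibrinogen level was not tested. Thbs3, the other thrombospondin tested, moved against Thbs1: it fell under TGF-β by 2.06 on the log2 scale (SE 0.24, edgeR FDR 0.00164) and by a further 0.98 when 2APB was added (SE 0.24, edgeR FDR 0.0422), the latter lost without either DMSO replicate, TGF-β replicate 1 or TGF-β+2APB replicate 1. Vwa1, a matrix protein of basement membranes, was the rise between the treatments, 4.22-fold (log2 2.08, SE 0.26, edgeR FDR 0.00754).

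**Figure D5:**
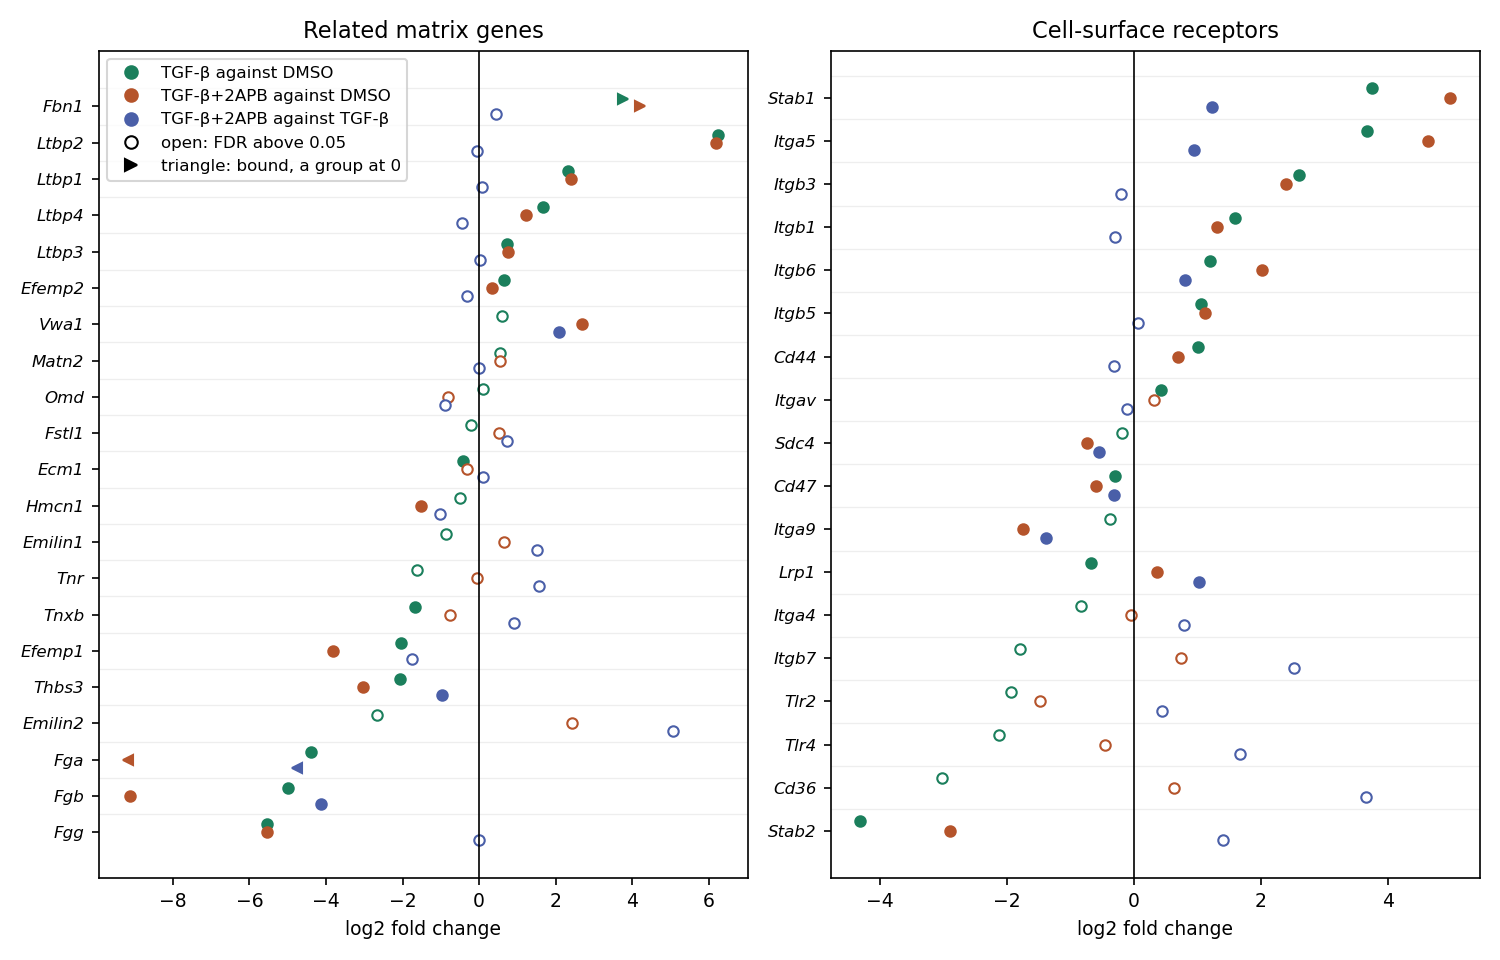
Log2 fold changes (horizontal axes) of the 21 tested related matrix genes and the 18 tested cell-surface receptors in the 3 comparisons, filled where the FDR was 0.05 or less, with triangles at the lower bound where a group had no count. Fbn1 and 4 Ltbp genes lie on the right for both comparisons with DMSO, the 3 fibrinogen genes on the left, and Stab1 and Itga5 are the receptors with the largest rises.

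Receptors for these matrix proteins were read from a list of 20 genes, of which 18 were tested. Under TGF-β against DMSO 8 were called higher and 3 lower, where the shares of all tested entries were 21.8% and 19.7%. Under TGF-β+2APB they were 8 and 4, beside 25.6% and 27.2%, and between the treatments 4 and 3, beside 6.58% and 10.9%. The shares of receptors called lower than in DMSO were near those of all entries. The fibronectin receptor subunits Itga5 and Itgb1 rose under TGF-β, 12.8-fold (log2 3.67, SE 0.11, edgeR FDR 3.25e-05) and 3.04-fold (log2 1.60, SE 0.08, edgeR FDR 0.000118). Itga5 rose by a further 1.94-fold when 2APB was added (log2 0.95, SE 0.10, edgeR FDR 0.00494), in the same comparison in which its ligand Fn1 was lower. Itgb3, which pairs with Itgav to bind osteopontin and other matrix proteins, rose 6.05-fold under TGF-β (log2 2.60, SE 0.14). Stab1, an endocytic receptor for SPARC, rose 13.5-fold under TGF-β (log2 3.75, SE 0.14) and 2.34-fold more when 2APB was added (log2 1.23, SE 0.12, edgeR FDR 0.00494).
Among the falls, Stab2, a related scavenger receptor, fell 19.7-fold under TGF-β (log2 -4.30, SE 0.64), from 144 and 134 counts to 10 and 4. Lrp1, an endocytic receptor for thrombospondin-1, fell 1.59-fold under TGF-β and rose 2.04-fold when 2APB was added (log2 1.03, SE 0.11, edgeR FDR 0.00501). Cd47, a thrombospondin-1 receptor, fell 1.22-fold under TGF-β (edgeR FDR 0.0216) and 1.23-fold when 2APB was added (edgeR FDR 0.0385). Itga9, a tenascin-C and osteopontin receptor subunit, and Sdc4, a fibronectin coreceptor, fell when 2APB was added by 1.37 (SE 0.32, edgeR FDR 0.0388) and 0.54 (SE 0.11, edgeR FDR 0.0289) on the log2 scale. The falls of Cd47, Itga9 and Sdc4 between the treatments were all lost without either DMSO replicate or either TGF-β+2APB replicate, and that of Cd47 under TGF-β without either DMSO or either TGF-β+2APB replicate. The receptors called between the treatments numbered 3 without either DMSO replicate and 4 without TGF-β+2APB replicate 2, all higher. Cd36, Itgb7, Tlr2 and Tlr4, all at least 4 times higher in that replicate than in replicate 1, were called in no comparison by edgeR with all libraries. Without replicate 1 of TGF-β+2APB all 4 were called higher than under TGF-β, and without replicate 2 Cd36, Tlr2 and Tlr4 were called lower than in DMSO.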

How the data were processed

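RNA of NMuMG cells was sequenced in 6 libraries, 2 biological replicates of each of 3 groups named by the sample titles. The authors checked single-end reads with FastQC 0.11.2, aligned them with TopHat2 2.0.13 and deposited the integer counts that featureCounts gave per gene, not normalized. Per the labels the build was mm10, whereas the study's methods name a human genome, and the symbols are mouse symbols. The gene annotation, strand setting and treatment of multiply aligned reads are not given in the sources used here, so reads of the annotated genes that overlap Fn1, Tnc, Thbs1 and Spp1 cannot be told apart. In the table, 25 entries have the form of dates in place of a symbol and are not named here.

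Counts were scaled by TMM factors in edgeR 4.0.16 (R 4.3.3, limma 3.58.1), and entries averaging 20 or more normalized counts were fitted in 1 quasi-likelihood model of the 3 groups. A difference was called at an FDR (Benjamini-Hochberg) no higher than 0.05, and the SE of a log2 fold change is its size over the root of the F statistic. The biological coefficient of variation was 17.4%. An exact permutation test of 2 against 2 libraries cannot go below a p of 0.333, so single genes were tested only in this shared model. Bounds against a group at 0 use 3 counts per library and cover counting error only. Positions and transcript lengths came from GENCODE vM21 (GRCm38), to which 17551 entries (94.8%) were matched by symbol, and promoter windows from RefSeq (GRCm38.p6). The longest transcript of Bgn, Tgfbi and Postn was not protein-coding. Tables and plots used Python 3.11.15, pandas 2.3.3 and matplotlib 3.10.9. The procedure was tested on simulated data.

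The genes, lists and tests were chosen with earlier results of these data known. Named genes were all 10 genes, the 3 largest called rises and falls of the related matrix genes and of the receptors in each comparison, the 2 genes nearest to each tested gene, and check genes where a result turned on them. Ecm1, Efemp1, Efemp2, Tnxb, Hmcn1, Emilin2, Ltbp3, Ltbp4, Itgb1, Itgb7, Cd36, Tlr2 and Tlr4 were named after their values were seen. Alternatives were RLE or library size scaling, no mean filter, at least 10 counts in every library, DESeq2 1.42.0 with and without its fold change prior, the replicate number as a block, models with just the 4 libraries of a comparison, halved counts, an FDR limit of 0.01, a minimum log2 fold change of 1, each library left out, merged exon length, and likeness by Pearson correlation. A block with the TGF-β+2APB numbers exchanged, the longest protein-coding transcript and a floor of 6 counts were added after seeing the data.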

Additional observations from a re-analysis of the deposited data

How the results depend on the processing

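Against DMSO, the number of the 10 genes called stayed within 1.5 times its value under every alternative except a required log2 fold change of 1 or more, which left 3 with TGF-β (Thbs1, Fbln2 and Tnc). For TGF-β+2APB against TGF-β, where 4 were called, 1 (Spp1) was called with the replicate number as a block, in a fit of only the 4 libraries compared and at an FDR of 0.01, and 1 to 4 with 1 library left out in turn. Of the related matrix genes in that comparison, DESeq2 called 9 in place of 4, with and without its prior. Of the receptors, 3 were called in place of 7 with the block, in the fit of 4 libraries, at an FDR of 0.01 and where a log2 fold change of 1 or more was required, and 3 to 9 with 1 library left out. Leaving out libraries left the numbers for the comparisons with DMSO within 1.5 times of those given. Thbs1 between the treatments turned to -0.0097 with library size scaling, and ran from -0.14 (without TGF-β+2APB replicate 1) to 0.15 with 1 library left out. Tgfbi under TGF-β+2APB ran from -3.70 to 2.94 against DMSO and from -0.75 to 5.89 against TGF-β, negative without TGF-β+2APB replicate 2 alone, and Bgn against DMSO from -0.25 to 0.16, positive without DMSO replicate 2 and without TGF-β+2APB replicate 2 (0.13). The causes were not tested. Deviations of same-numbered replicates correlated across genes by a Pearson r of 0.148 for the DMSO and TGF-β groups. The r was -0.458 for DMSO with TGF-β+2APB and -0.255 for the treated groups. These values do not settle whether same-numbered samples were handled together, and the labels give only the number. The block moved the calls over all tested entries from 5548, 7044 and 2334 to 4737, 6358 and 1342, and the calls of Bgn with TGF-β (edgeR FDR 0.0575) and of Bgn, Tnc and Fn1 between the treatments (0.0952, 0.0915 and 0.0594) were lost under it. With the TGF-β+2APB numbers exchanged, which was chosen after seeing the data, the block gave 5706, 7232 and 2465 calls. Library size scaling changed the split of all calls from 2914 higher and 2634 lower to 2834 and 2875 with TGF-β against DMSO, from 3414 and 3630 to 3123 and 4057 with TGF-β+2APB, and from 879 and 1455 to 874 and 1809 between the treatments, and the largest shift of the median of all entries by a scaling was -0.06 on the log2 scale. Merged exon length lowered the levels per kilobase of all genes, by unequal amounts. It is 11685 bases for Fn1, 6073 for Thbs1 and 6370 for Fbln2. By this length the mean of Thbs1 lay above that of Fn1 under TGF-β+2APB, with overlapping replicates. Thbs1 and Fbln2 no longer overlapped in either treated group, where Thbs1 was higher. The mean of Tgfbi (3771 bases) lay above that of Bgn (6099 bases) in DMSO. Depth limits Thbs2 and Postn, and 2 replicates per group limit Bgn, Tnc and Tgfbi.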
